A study of Mus musculus with 2 samples.

Results

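Cholesterol synthesis and sterol regulation were followed here through 31 genes, taken by symbol from the 17492 genes of a single-cell count matrix of mouse corneal epithelium. All 31 symbols were present. The set holds 18 synthesis enzymes, in pathway order from acetyl-CoA to the last reductions of the sterol ring, and 13 genes that sense, regulate, transport or store sterols. All 31 had 50 or more counts over both libraries, the minimum set here for a measured gene.

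Animal cells build cholesterol from acetyl-CoA by way of mevalonate, squalene and lanosterol. The enzymes share a sterol feedback: when membrane sterols are scarce, SCAP carries the SREBP precursors out of the endoplasmic reticulum and the released factors switch on the synthesis genes, and when sterols are plentiful the INSIG proteins hold SCAP back. Excess sterol acts in the opposite direction through the liver X receptors, which raise efflux pumps and the ubiquitin ligase MYLIP. Every growing or dividing cell also draws on the pathway for its membranes.

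The comparison asked how these genes differ between the epithelium of diabetic and control mice, layer by layer. Both groups were male C57BL/6J mice aged 20 weeks. The Diabetic library came from mice given 1 dose of streptozotocin at 160 mg/kg, a toxin of the insulin-producing beta cells, whose glucose had stayed over 250 mg/dL for the 12 weeks of the study, and the Control library from mice given citrate buffer. Each library pooled 4 corneas of 2 mice, so each group is 1 pool with no replicate, and no animal can be told from another. With 1 library a group, no test between groups exists, every interval below is a 95% interval for counting error only, and a difference between the libraries cannot be told apart from a difference between the pools of animals or their preparation.

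The Control library held 9605 cells and 196359192 unique molecular identifiers (UMIs, tags that count each captured RNA molecule once), and the Diabetic library 8203 cells and 171030636 UMIs. The authors had given each cell 1 of 8 labels. Each listed marker was higher in its own label than in all other labels pooled, except Krt5 in Basal cells (0.786-fold). Set against single labels, some lists were not highest in their own cells. In both libraries the summed LSC list was higher in Conj than in LSC cells. The Basal list was higher in Wing and LSC than in Basal cells, and the TAC1 list was near level in TAC1 and TAC2 cells. Wing cells, the intermediate layer, were 30.2% of the cells in Control and 24.1% in the Diabetic library, and LSC cells 2.10% and 4.04%. Immune cells numbered 26 and 10 and are not compared. The libraries shared 18 cell barcodes. Of the cell types that a corneal sheet could carry along, the meibomian gland list summed to 26.2 and 36.2 CPM (CPM, each gene's summed counts as parts of the total of the same cells, scaled to the same total everywhere) with 0 of its 5 markers at 0, the goblet cell list to 24.6 and 26.7 CPM, and the immune list to 20.4 and 10.9 CPM. In Basal and Wing cells the meibomian list was higher in the Diabetic library (37.7 and 60.8 CPM, 29.1 and 39.3 CPM), where the enzymes were lower. In Basal cells 2 of its 5 markers were at 0 in both libraries, and in Wing cells 1 in Control and 0 in the Diabetic library. Such a sum can rest on few of the markers, and the presence of meibomian cells was not tested. The stromal, vessel and Schwann cell or melanocyte lists were at 2.70 CPM or less over all cells, and the corneal endothelium list at 3.55 and 5.19 CPM. Each list names 5 markers, of which the matrix held 1 stromal, 2 vessel, 4 Schwann cell or melanocyte and 4 corneal endothelium genes. A low sum of such a list is therefore a limited sign that the cells were absent. The part of these lists in the results below was not tested.

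Because the enzymes were lower together, upstream sequences are shown for motifs they could share. RefSeq promoter entries on GRCm38.p6 matched 15 of the 18 enzymes and 10 of the 13 other genes (not Sqle, Fdps, Fdft1, Npc1, Stard4 or Abcg1). The 250 bases before each start were searched on both strands for the core of the sterol element bound by SREBP (TCACNCCA), a longer form of it that includes it (TCACNCCAC), the CCAAT box bound by NF-Y, which often works beside SREBP, and the direct repeat of liver X receptors (2 copies of AGGTCA with 4 bases between them). A gene counted where any of its windows held the letters, and the motifs were chosen after the values were seen. The sterol core was found in the windows of 2 enzymes, Hmgcs1 and Msmo1, and of the regulator Srebf2, and in 4.05% of 10537 measured genes. The 3 matches are shown in 30 bases each, 5′ to 3′ on the gene's strand, with the core in capitals. They lie at chr13:119690203-119690232 on the plus strand (Hmgcs1), chr8:64733737-64733766 on the minus strand (Msmo1) and chr15:82147096-82147125 on the plus strand (Srebf2), and their cores begin 137, 177 and 162 bases before the start. The 250-base windows of Msmo1 and Srebf2 overlap an annotated exon of their own gene. The Msmo1 match itself lies inside the annotated span of the gene (chr8:64718139-64733792), so it is upstream only of the promoter entry's start.
Hmgcs1: acgtcaccgtcTCACCCCActtcccaggtc
Msmo1: tctcactattcTCACTCCAtccgcgcagcc
Srebf2: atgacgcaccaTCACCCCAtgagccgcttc

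The CCAAT box was in the window of 14 of 15 enzymes (93.3%) and 7 of 10 other genes (70%), and in 40.8% of measured genes. Acat2 was the matched enzyme without it. The longer sterol form was upstream of Hmgcs1 alone among the 25 matched members, against 1.23% of measured genes. The liver X receptor repeat was in none of the 25 matched members and in 4 of 27025 genes. A match describes letters in a window, not a working site. Whole windows follow for 2 enzymes and 2 genes that were higher in the Diabetic library, with both motifs in capitals on either strand (ATTGG is the CCAAT box on the other strand). They are Hmgcs1 at chr13:119690101-119690350 (plus strand), Mvd, the enzyme with the largest difference, at chr8:122443423-122443672 (minus), Mylip at chr13:45389492-45389741 (plus) and the most upstream of 3 windows of Insig2 at chr1:121332590-121332839 (minus). The other 2 windows of Insig2 hold 0 CCAAT boxes, overlap annotated exons and are not shown. None of the windows shown overlaps an annotated exon, and they hold 3, 2, 3 and 3 CCAAT boxes.
Hmgcs1: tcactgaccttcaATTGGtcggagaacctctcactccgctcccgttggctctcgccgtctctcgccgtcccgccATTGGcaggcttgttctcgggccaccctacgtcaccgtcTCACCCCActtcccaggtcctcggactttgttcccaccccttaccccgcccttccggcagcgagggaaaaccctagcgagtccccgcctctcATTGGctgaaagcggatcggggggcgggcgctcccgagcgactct
Mvd: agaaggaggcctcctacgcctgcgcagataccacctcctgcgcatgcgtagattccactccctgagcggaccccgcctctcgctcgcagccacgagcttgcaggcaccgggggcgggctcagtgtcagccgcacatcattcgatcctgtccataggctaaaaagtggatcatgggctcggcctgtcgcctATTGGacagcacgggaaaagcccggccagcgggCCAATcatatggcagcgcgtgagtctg
Mylip: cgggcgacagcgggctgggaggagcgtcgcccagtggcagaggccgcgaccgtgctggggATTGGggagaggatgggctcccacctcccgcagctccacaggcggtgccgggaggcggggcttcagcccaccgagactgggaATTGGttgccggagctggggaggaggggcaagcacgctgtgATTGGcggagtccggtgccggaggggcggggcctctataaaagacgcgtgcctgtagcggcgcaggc
Insig2: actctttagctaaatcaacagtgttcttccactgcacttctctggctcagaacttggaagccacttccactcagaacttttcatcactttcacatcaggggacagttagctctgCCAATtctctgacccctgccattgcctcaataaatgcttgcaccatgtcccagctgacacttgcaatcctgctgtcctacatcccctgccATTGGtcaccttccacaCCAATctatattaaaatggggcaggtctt

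Over all cells, each of the 18 synthesis enzymes had lower CPM in the Diabetic library, while the regulators and transport genes were split. The median log2 ratio of Diabetic over Control CPM was -0.54 for the enzymes, from -0.81 (Mvd) to -0.20 (Acat2), and 0.07 for the other 13 genes, against 0.07 for all 13846 measured genes, of which 38.6% were lower at all. The Poisson intervals of the CPM did not overlap for any enzyme, where 20.4% of measured genes were lower in this sense. A gene was called where the ratio was also 1.5 or more. By that rule 5 enzymes were lower (Mvd, Fdft1, Sqle, Msmo1 and Hsd17b7), where 2.80% of measured genes were called lower, and 0 of the other 13 were called in either direction, where 5.98% of measured genes were called higher. With equal label weights only Mvd and Fdft1 kept the call, and with a total that leaves out mitochondrial and ribosomal protein genes only Mvd, Fdft1 and Hsd17b7 did. With median-of-ratios scaling 11 enzymes were called lower. Idi1, Fdps, Cyp51, Mvk and Lss stopped just short, at 1.45-fold to 1.49-fold lower. Summed, the enzymes held 2130.2 CPM in the Control and 1497 CPM in the Diabetic library, 1.42-fold lower (1.42 to 1.43), and the other genes 658 and 648 CPM.

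**Figure D1:**
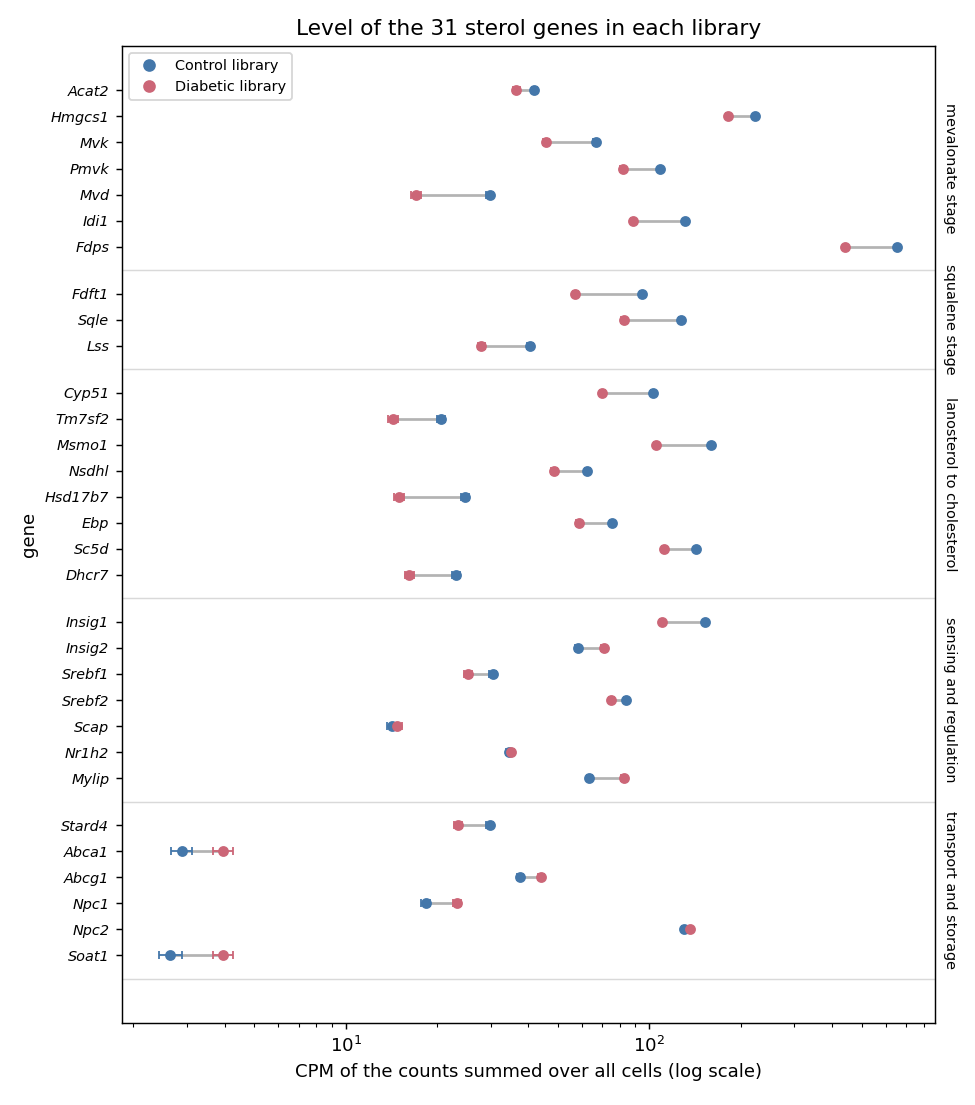
Level of each of the 31 genes in the Control (blue) and Diabetic (red) library as CPM of counts summed over all cells, on a log axis, with 95% Poisson bars. All 18 enzymes in the upper 3 blocks sit further left in the Diabetic library, while Insig2, Mylip, Abca1, Abcg1, Npc1, Npc2 and Soat1 sit further right.

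**Figure D2:**
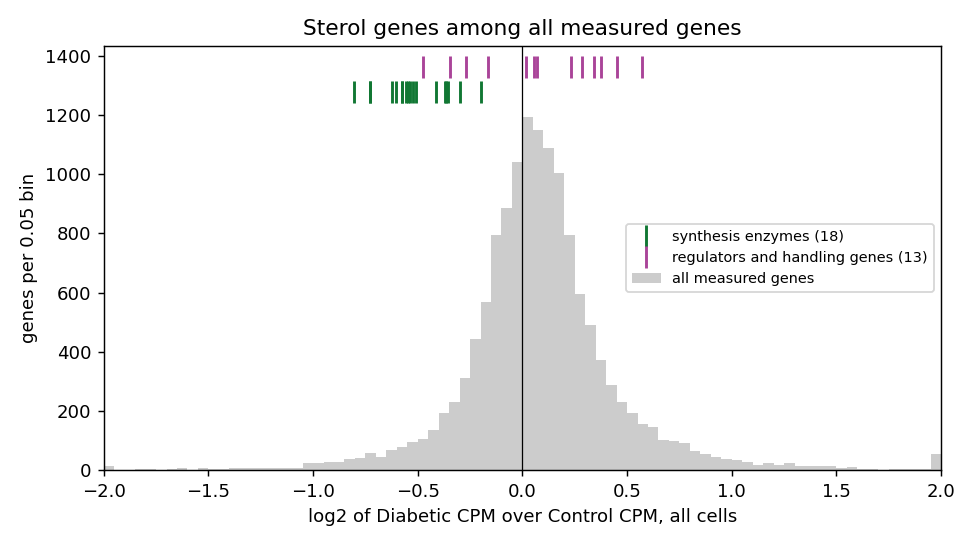
Log2 of Diabetic over Control CPM over all cells for the measured genes (grey histogram, bins of 0.05, genes beyond the axis added to its end bins), with the 18 enzymes (green ticks) and 13 other sterol genes (purple ticks). The enzymes lie between -0.81 and -0.20, and the other genes between -0.48 and 0.57.

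The mevalonate stage runs from 2 acetyl units to farnesyl pyrophosphate, the branch point between sterols and other isoprenoids. Hmgcs1, which makes HMG-CoA, had 223 CPM in the Control and 181 CPM in the Diabetic library, 1.23-fold lower (1.21 to 1.248). Acat2, the thiolase before it, was at 41.9 and 36.5 CPM, the smallest difference among the enzymes. The kinases and the decarboxylase that follow differed more. Mvk was at 66.6 and 45.6 CPM (1.46-fold lower, 1.42 to 1.503) and Pmvk at 109 and 81.7 CPM (1.33-fold lower). Mvd, which makes isopentenyl pyrophosphate, was at 29.8 and 17.0 CPM, 1.75-fold lower (1.67 to 1.83). The isomerase gene Idi1 was at 132 and 88.4 CPM. Fdps, which makes farnesyl pyrophosphate, was at 655 and 440.5 CPM, and both were 1.49-fold lower. Fdps supplied 30.8% of all enzyme UMIs in the Control library and 29.4% in the Diabetic library, and the sum without it was 1.40-fold lower. Fdps overlaps exons of Gm43738 on the same strand, so reads of the pair could be split by the counting.

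The squalene stage commits the pathway to sterols, and its 3 genes had a median log2 ratio of -0.62. Fdft1, squalene synthase, was at 94.5 and 57.1 CPM, 1.65-fold lower (1.61 to 1.70). Sqle, the oxygenase that opens the way to the ring and a slow step of the pathway, was at 127 and 82.2 CPM, 1.54-fold lower (1.51 to 1.57). Lss, which closes the ring to lanosterol, was at 40.5 and 28.0 CPM, 1.45-fold lower (1.40 to 1.502). All 3 genes had lower CPM in the Diabetic library, with intervals apart. Fdft1 overlaps exons of Ctsb on the opposite strand, and whether the authors' counting used strand is not given in the sources used here.

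From lanosterol to cholesterol, 8 genes had a median of -0.52. Msmo1, which oxidizes the methyl groups that are then removed, was at 160 and 105 CPM, 1.52-fold lower (1.49 to 1.55). Hsd17b7, the ketoreductase of the same demethylation, was at 24.7 and 15.0 CPM, 1.65-fold lower (1.58 to 1.74), and Nsdhl, the dehydrogenase between them, at 62.5 and 48.4 CPM, 1.29-fold lower. Over all cells, the ratios of these steps have intervals, for counting error only, that do not meet. Their order was not the same in every label. In Squam cells Msmo1 (171 and 123 CPM) differed by more than Hsd17b7 (31.8 and 24.3 CPM). Cyp51, the lanosterol demethylase, was at 103 and 70.0 CPM (1.47-fold lower) and the reductase gene Tm7sf2 at 20.5 and 14.3 CPM (1.44-fold lower). The isomerase gene Ebp was at 75.5 and 58.5 CPM (1.29-fold lower), the desaturase gene Sc5d at 143 and 111 CPM (1.28-fold lower) and the reductase gene Dhcr7 at 23.1 and 16.2 CPM (1.42-fold lower). Tm7sf2 overlaps exons of Vps51 on the same strand and Cyp51 those of Akap9 on the other.

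The regulators did not move as a block, and the INSIG pair was split. Insig1, itself an SREBP target, was at 153 and 110 CPM, 1.39-fold lower (1.37 to 1.42). Insig2, which does the same work under other control, was at 58.0 and 70.7 CPM, 1.218-fold higher (1.187 to 1.25). The SREBP genes were a little lower: Srebf1 was at 30.5 and 25.3 CPM (1.204-fold) and Srebf2 at 84.1 and 75.02 CPM (1.12-fold). Their escort Scap was at 14.2 and 14.8 CPM and Nr1h2, the liver X receptor beta, at 34.6 and 35.0 CPM, and the intervals of both overlapped. Under other scalings these last 2 ratios changed sign. Mylip, the liver X receptor target that marks lipoprotein receptors for decay, was at 63.5 and 82.2 CPM, 1.295-fold higher (1.26 to 1.33). Of these 7 genes, 3 were apart and lower, where 20.4% of measured genes were, and 2 apart and higher, where 34.1% of measured genes were.

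Transport and storage genes were mostly higher over all cells of the Diabetic library, with a median of 0.29. The share of each label in a library enters these values. Of these 6 genes, 5 were higher with intervals apart, where 34.1% of measured genes were. The remaining 1 was lower with intervals apart, where 20.4% of measured genes were. The efflux pump genes Abca1 (2.88 and 3.94 CPM, 1.37-fold higher, 1.221 to 1.53) and Abcg1 (37.5 and 44.1 CPM, 1.17-fold higher) were both higher. Npc1, which passes sterol out of the lysosome membrane, was at 18.3 and 23.3 CPM (1.27-fold higher), and its lumenal partner Npc2 at 130 and 136 CPM (1.05-fold higher). Within labels, Npc2 was lower in 5 of 7. Soat1, which esterifies cholesterol for storage, was at 2.65 and 3.94 CPM, 1.49-fold higher (1.33 to 1.67). Abca1 and Soat1 rest on few counts, 566 and 520 in Control and 674 and 674 in Diabetic cells. The sterol carrier gene Stard4, an SREBP target, went with the enzymes at 29.8 and 23.5 CPM, 1.27-fold lower.

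The enzymes were not spread evenly over the epithelium. In Control cells their summed level was 906 CPM in Basal, 803 in LSC and 792 in TAC1 cells, 1177 in TAC2 cells, and 2955 in Wing, 2368 in Squam and 2790 CPM in Conj cells. Wing cells thus held 3.26-fold the Basal level in Control and 3.14-fold in Diabetic cells. All 18 enzymes were above their Basal level in Wing cells of both libraries, in Control from 1.72-fold (Hmgcs1) to 7.03-fold (Tm7sf2). In the Control library 13 enzymes had their highest level in Wing cells, 3 in Conj cells (Fdps, Ebp and Dhcr7) and 2 in Squam cells (Nsdhl and Sc5d). In the Diabetic library 5 were highest in Wing cells and 11 in Conj cells, with Nsdhl and Sc5d again highest in Squam cells. Labels of 1 library share their animals and preparation, so these orders are descriptions.

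The other 13 genes followed no common layer pattern. Insig1 was at 26.9 CPM in Basal, 97.4 in Wing and 489.6 CPM in Squam cells of the Control library, 18.2-fold over Basal. Abcg1 was at 4.49 CPM in Basal and 146 CPM in Squam cells, 32.5-fold over Basal. Insig2 was highest in Squam cells too, at 101 CPM against 37.1 CPM in Basal cells. Mylip (98.7 CPM) and Npc2 (196 CPM) were highest in Basal cells, and Abca1 (15.6 CPM), Npc1 (27.5 CPM) and Nr1h2 (51.4 CPM) in LSC cells. Srebf2 (103 CPM) and Stard4 (40.2 CPM) were highest in Wing cells of the Control library, with most enzymes. In the Diabetic library Stard4 was highest in Conj cells, at 35.8 CPM. In Control, Srebf1 was highest and near level in the cycling TAC2 cells (41.5 CPM) and TAC1 cells (41.3 CPM), and lowest in Conj cells (15.1 CPM).

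**Figure D3:**
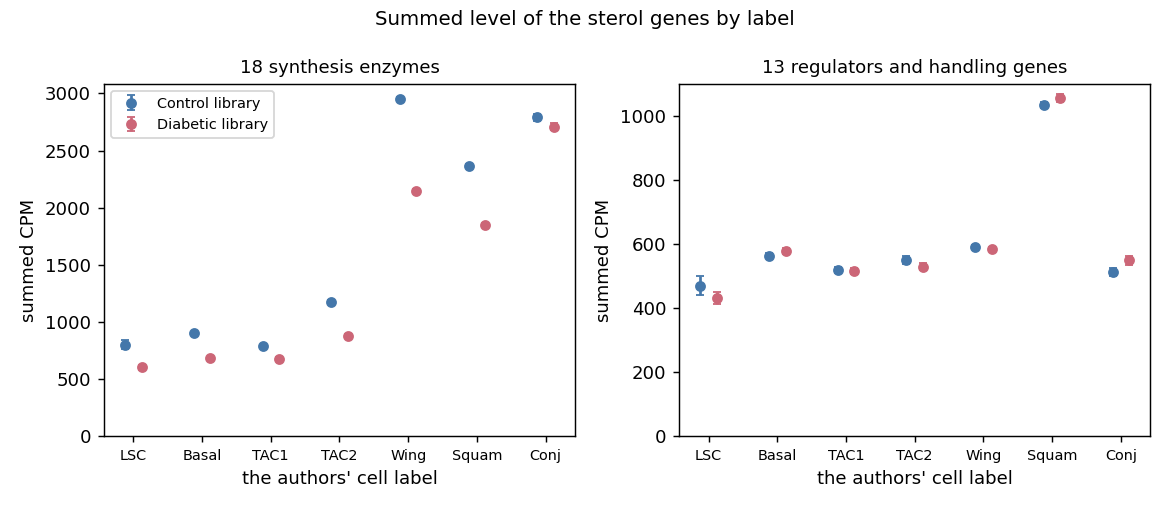
Summed CPM of the 18 synthesis enzymes (left) and the 13 regulators and handling genes (right) in each of 7 cell labels, for the Control (blue) and Diabetic (red) library, with 95% Poisson bars. The enzyme sum is lower in the Diabetic library in every label shown, least so in Conj cells (2790 and 2711 CPM), while the right panel shows near-equal pairs.

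Within labels, the enzyme difference was present in 6 of 7 labels and nearly absent in the cells labelled Conj. The sum was 1.32-fold lower in Basal cells (685 CPM in the Diabetic library), 1.33-fold in LSC (604 CPM), 1.34-fold in TAC2 (878 CPM), 1.37-fold in Wing (2150.4 CPM), 1.28-fold in Squam (1849.9 CPM) and 1.16-fold in TAC1 cells (682 CPM). In Conj cells it was 1.03-fold lower (1.01 to 1.05), and without Fdps it was level there, at 1684 and 1683 CPM. The median log2 ratio was -0.48 in Basal, -0.44 in LSC, -0.50 in TAC2, -0.48 in Wing, -0.41 in Squam, -0.28 in TAC1 and 0.01 in Conj cells. Over the 123 measured pairs of an enzyme and a label, 108 were lower in the Diabetic library, 79 of them with intervals apart, and 4 were higher with intervals apart. Of all measured genes, 48.7% were lower in LSC, 49.0% in Basal, 48.0% in TAC1, 43.8% in TAC2, 43.1% in Wing, 61.1% in Squam and 46.5% in Conj cells, and 5.75%, 15.2%, 11.1%, 8.66%, 18.3%, 23.1% and 9.54%, in the same order, were lower with intervals apart. The shares higher with intervals apart were 5.31%, 13.3%, 8.95%, 10.8%, 23.4%, 12.0% and 10.9% in that order. The 13 other genes gave 87 measured pairs, of which 40 were lower, 17 of them with intervals apart, and 21 were higher with intervals apart. With 1 library a group, no test between labels exists.

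**Figure D4:**
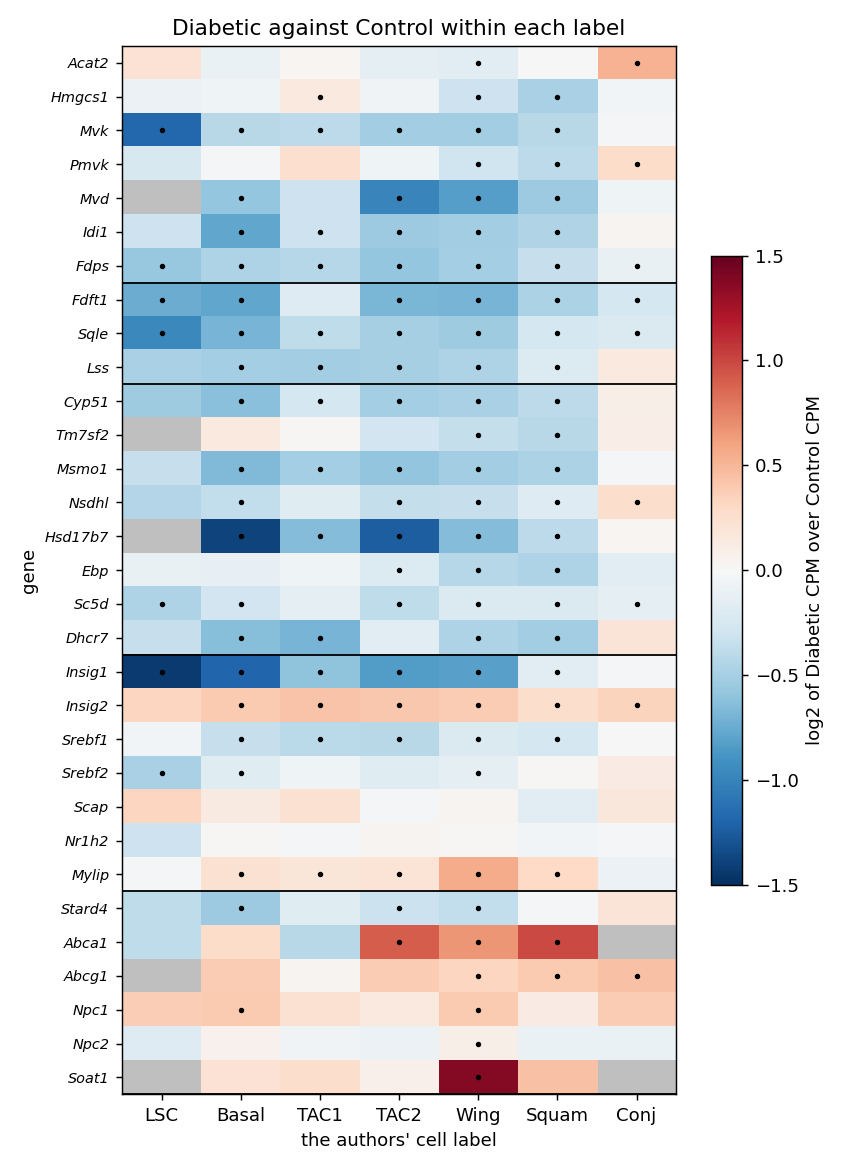
Log2 of Diabetic over Control CPM for each gene (lines, in pathway order with black lines between roles) and each label (columns), blue for lower and red for higher in the Diabetic library, grey for fewer than 50 counts; dots mark Poisson intervals that do not overlap. The enzyme blocks are mainly blue in every column but Conj, and Insig2 and Npc1 are red in all 7 columns.

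In Basal cells 7 enzymes were called lower, where 2.38% of measured genes were. The largest difference was in Hsd17b7, at 9.65 and 3.67 CPM (2.63-fold lower, 2.13 to 3.27). Idi1 was at 67.9 and 39.7 CPM and Fdft1 at 39.5 and 23.1 CPM, both 1.71-fold lower. Sqle, Msmo1, Dhcr7 and Cyp51 were 1.55-fold to 1.62-fold lower. The mevalonate steps were uneven in the same cells. Hmgcs1 was at 168 and 160.2 CPM, Pmvk at 24.1 and 23.9 CPM and Acat2 at 16.3 and 15.2 CPM, all with overlapping intervals. Mvk (46.8 and 35.0 CPM, 1.34-fold) and Mvd (14.8 and 9.92 CPM, 1.49-fold) were lower with intervals apart. TAC2 cells, a cycling label by its markers, had 5 enzymes called lower, where 1.35% of measured genes were. Among them were Mvd (19.3 and 9.73 CPM, 1.99-fold) and Hsd17b7 (10.95 and 4.64 CPM, 2.36-fold). In TAC1 cells 2 were called lower, where 1.52% of measured genes were, namely Hsd17b7 (7.90 and 5.05 CPM) and Dhcr7 (10.7 and 6.59 CPM).

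LSC cells, the label led by limbal markers, had 15 measured enzymes, of which 14 were lower and 3 called, where 2.61% of measured genes were called lower. Mvk was at 28.9 and 12.8 CPM (2.26-fold lower, 1.56 to 3.27), Sqle at 47.3 and 24.1 CPM and Fdft1 at 30.3 and 18.03 CPM. These values rest on small counts, 63 and 59 for Mvk. The corneal endothelium list stood at 1.84 and 60.8 CPM in Control and Diabetic LSC cells, with 3 and 1 of its 4 matrix genes at 0. The 1 stromal gene in the matrix stood at 13.3 and 23.7 CPM in the same cells. The part of these 2 lists in the LSC values was not tested. Wing cells had all 18 enzymes lower with intervals apart, where 18.3% of measured genes were, and 3 called, where 2.59% of measured genes were: Mvd (46.3 and 26.2 CPM, 1.77-fold), Fdft1 (133 and 82.3 CPM, 1.62-fold) and Hsd17b7 (33.7 and 21.5 CPM, 1.57-fold). Squam cells had 17 of 18 lower with intervals apart, where 23.1% of measured genes were, and 0 called, where 7.75% were. Hmgcs1, near level in Basal cells, was at 209 and 149.6 CPM in Squam cells (1.40-fold lower), and Acat2 was at 39.3 and 39.1 CPM.

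In Conj cells, which carried the conjunctival keratin markers, 9 enzymes were lower and 9 higher, with 0 called, where 1.95% of measured genes were called lower. Of these, 4 were lower with intervals apart, where 9.54% of measured genes were. They were Fdps (1106 and 1027 CPM), Fdft1 (101 and 84.2 CPM), Sqle (139 and 119 CPM) and Sc5d (219 and 198 CPM). Acat2 (39.6 and 56.7 CPM), Pmvk (122 and 147 CPM) and Nsdhl (72.8 and 87.7 CPM) were higher with intervals apart, where 10.9% of measured genes were. Fdps and Sqle were lower with intervals apart in all 7 labels, and Mvk, Fdft1 and Sc5d in 6.

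Among the regulators, Insig1 had the widest range over labels. It was at 25.2 and 9.34 CPM in LSC cells (2.70-fold lower, 1.78 to 4.13), at 26.9 and 11.8 CPM in Basal cells (2.27-fold lower, 2.02 to 2.57), and at 97.4 and 55.3 CPM in Wing cells (1.76-fold lower, 1.69 to 1.84). In Squam cells, which held the most, it was at 489.6 and 438 CPM (1.12-fold lower), and in Conj cells at 118 and 116 CPM. The Diabetic library was therefore lower by 1.39-fold over all cells but by more than that in each of LSC, Basal, TAC1, TAC2 and Wing cells, the 5 labels in which it was called lower. Free RNA bears on a gene that is so high in Squam cells. Psca, a marker of those cells, was in Basal cells at 0.276% of its Squam level in Control and 0.0951% in Diabetic cells, while Insig1 was at 5.49% and 2.69%. Both shares were lower in the Diabetic library, and the part of free RNA in the Basal difference was not tested beyond these shares.

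Insig2 was higher in 7 of 7 labels, by log2 ratios of 0.27 to 0.43, with intervals apart in all but LSC cells. In Basal cells it was at 37.1 and 48.9 CPM, and in Conj cells, where the enzymes hardly differed, at 79.3 and 99.7 CPM. Mylip was higher with intervals apart in Basal, TAC1, TAC2, Wing and Squam cells, most in Wing cells (48.7 and 71.6 CPM, 1.47-fold), and was at 28.3 and 26.6 CPM in Conj cells. Srebf1 was lower in 7 of 7 labels, with intervals apart in 5. Srebf2, the main driver of sterol synthesis genes, was lower with intervals apart in 3 labels, at 56.5 and 40.4 CPM in LSC (1.40-fold), 67.1 and 59.1 CPM in Basal and 103 and 94.1 CPM in Wing cells. In Squam cells it was at 81.0 and 81.9 CPM.

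Of the efflux and storage genes, Abcg1 was higher in all 6 labels in which it was measured. In Squam cells, its main site, it was at 146 and 192 CPM, 1.31-fold higher (1.27 to 1.36). Abca1 was at 1.33 and 2.65 CPM in Squam cells (1.99-fold higher, from 52 and 81 counts), at 1.47 and 2.32 CPM in Wing cells (1.58-fold) and at 2.17 and 4.07 CPM in TAC2 cells (1.87-fold), each called higher. It was lower in the Diabetic library, with overlapping intervals, in TAC1 cells (7.41 and 5.55 CPM, 153 and 112 counts) and in LSC cells (15.6 and 11.9 CPM), where it was highest. Soat1 was called higher in Wing cells alone among the labels, at 0.596 and 1.55 CPM (2.60-fold, 1.79 to 3.80), from 47 and 82 counts. The share of measured genes called higher was 3.93% in Wing, 1.79% in Squam and 2.21% in TAC2 cells, and 2.63% in LSC, 2.63% in Basal, 1.70% in TAC1 and 2.52% in Conj cells, where no efflux or storage gene was called higher. Npc1 was higher in 7 of 7 labels, with intervals apart in Basal (21.1 and 27.6 CPM) and Wing cells (21.7 and 28.6 CPM). Its soluble partner Npc2 differed little, at 196 and 204 CPM in Basal cells. Npc2 was higher in Basal and Wing cells, with intervals apart in Wing cells alone, and lower in the other 5 of 7 labels.

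The makeup of the libraries entered the values over all cells. Wing cells, high in enzymes, gave 40.1% of Control and 30.99% of Diabetic UMIs. With each label given the same weight in both libraries, the enzyme median was -0.41 in place of -0.54 and 2 enzymes, Mvd and Fdft1, were still called. Makeup also entered the all-cell values of Soat1 and Abca1. In Control they were low in Wing cells (0.596 and 1.47 CPM) and higher in Basal cells (5.57 and 5.47 CPM). Within Basal cells Soat1 was at 5.57 and 6.45 CPM in the 2 libraries, with overlapping intervals. The part of makeup in their all-cell ratios was not tested. Depth also differed, with a median of 16629 UMIs per TAC2 cell in Control and 24500 in Diabetic cells. When cells of Basal, TAC1, TAC2, Wing and Squam were split into 4 ranges of UMIs per cell, the enzyme sum was lower in the Diabetic library in all 20 groups. The difference ran from 1.12-fold (TAC1 cells under 10000 UMIs) to 1.90-fold (TAC2 cells under 10000 UMIs, 120 and 46 cells).

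Per cell, enzyme UMIs were lower in the Diabetic library in Basal, Wing and Squam cells, in Wing cells from the 10th percentile up. With each cell thinned to 5000 UMIs, which left out 486 Control and 264 Diabetic cells with fewer, the median Wing cell held 14 enzyme UMIs in Control and 10 in Diabetic cells, and the 10th to 90th percentiles were 6 to 26 and 4 to 20. In Basal cells the median was 4 and 3, with means of 4.58 and 3.48. Squam cells had 10th to 90th percentiles of 1 to 24 in Control and 1 to 20 in Diabetic cells, around medians of 11 and 8. Conj cells held medians of 13.5 and 12.5. Cells with 0 enzyme UMIs were 3.64% and 6.38% of Basal, 5.32% and 9.25% of Squam, and 0.664% and 0.465% of Conj cells. The 13 other genes gave means of 2.88 and 2.95 UMIs in Basal cells and 3.01 and 2.97 in Wing cells.

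**Figure D5:**
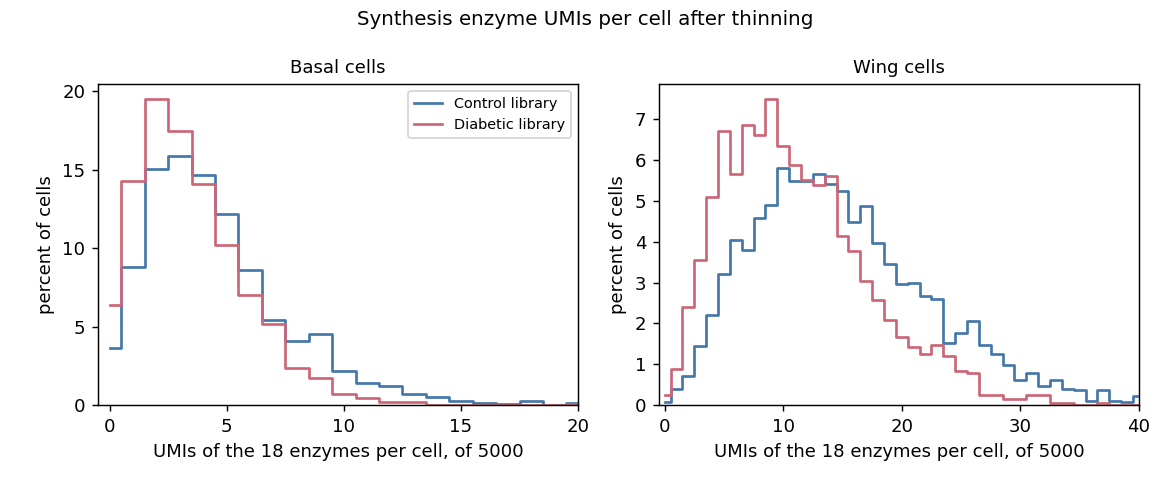
UMIs of the 18 enzymes per cell after thinning to 5000 UMIs, as percent of cells, for Basal cells (left, shown to 20 UMIs) and Wing cells (right, shown to 40 UMIs) of the Control (blue) and Diabetic (red) library. In both panels the Diabetic distribution sits further left, with medians of 3 against 4 and of 10 against 14.

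Neighbouring lipid pathways were read from lists of 48 genes. Of 13 fatty acid genes under SREBP control, 9 were lower and 4 higher over all cells (median -0.22), where 38.6% of measured genes were lower. Of these, 1 was called lower, where 2.80% of measured genes were: Scd2, a desaturase that makes monounsaturated fatty acids, at 451 and 290.3 CPM, 1.55-fold lower (1.53 to 1.57). Scd2 was lower with intervals apart in all 7 labels, Conj cells included (310 and 241 CPM). The 8 genes of SREBP processing and sterol-driven protein decay had a median of 0.05 with 0 called, and the 9 genes of the other isoprenoid branches, which also draw on farnesyl pyrophosphate, a median of -0.05 with 0 called. Of 15 genes of sterol traffic and oxysterols (median 0.14), 2 were called lower and 1 higher, against 2.80% and 5.98% of measured genes. Vldlr, a lipoprotein receptor and a known target of MYLIP as protein, was at 9.80 and 4.92 CPM, 1.99-fold lower (1.84 to 2.16), and was lower with intervals apart in all 7 labels. Gramd1b, a sterol carrier at membrane contacts, was at 0.922 and 0.485 CPM (181 and 83 counts). Ch25h, which makes an oxysterol that restrains SREBP, was at 0.132 and 0.275 CPM, from 26 and 47 counts. The electron donors of the sterol oxidations were not lower as a group, since Por (118 and 131 CPM) and Cyb5r3 (65.3 and 89.7 CPM) were higher and Cyb5a (277 and 238 CPM) lower.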

How the data were processed

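Single-cell RNA was measured in 1 Control and 1 Diabetic library of mouse corneal epithelium by 3′ v3.1 Chromium chemistry (labels' protocols). What the authors deposited is a matrix of raw UMI counts for each gene in each cell, and a deposited table gives each cell's group and label. The submitters' processing notes name Cell Ranger 5.0.0, Seurat 4 and mm10, without their roles. The sources used here give neither the filters on cells nor the use of strand.

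Counts were summed per library over all cells and per label and expressed as CPM, with exact Poisson intervals, and ratios with exact conditional binomial intervals. The basal class is LSC with Basal cells and the suprabasal class Wing with Squam cells. A gene was called at a ratio of 1.5 or more, 50 or more summed counts and Poisson intervals apart. No p-value was computed, since each group is 1 library. The steps were checked on simulated counts drawn from the Poisson model that the intervals assume, without variation between cells, animals or preparations. All members are described, and of the companion lists up to 2 called genes per direction and role with the largest ratios. Members and lists were chosen with earlier results of these data known. Gene overlaps came from GENCODE on GRCm38. Alternatives changed scaling, count minimum, doublets, mitochondrial share, cell and label weights, depth and the total. Scrublet marked 0 cells in either library, so the top 8% of scores (769 and 706 cells) were left out in that alternative. The work used scanpy 1.11.5, scipy 1.17.1, numpy 2.4.6, matplotlib 3.10.9 and pandas 2.3.3 under Python 3.11.15.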

Additional observations from a re-analysis of the deposited data

Results flagged for a closer look

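Enzymes with Poisson intervals apart in opposite directions in a pair of labels are given here. The difference between the labels was not tested, since each group is 1 library. Acat2 had a log2 ratio of Diabetic over Control of -0.17 in Wing and 0.52 in Conj cells. Hmgcs1 had -0.48 in Squam and 0.15 in TAC1 cells. Pmvk had -0.39 in Squam and 0.27 in Conj cells. Nsdhl had -0.37 in Basal and 0.27 in Conj cells.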

How the results depend on the processing

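All 18 enzymes were lower in the Diabetic library over all cells under each of 9 alternatives. Their median of -0.54 became -0.61 with median-of-ratios scaling, -0.49 with cells thinned to 5000 UMIs and -0.41 with equal label weights. The medians of the basal and suprabasal classes, both -0.47, moved by less than the width of the median single-gene limits. Those limits were -0.63 to -0.33 in the basal and -0.50 to -0.43 in the suprabasal class. They are medians of the limits of single enzymes, not an interval of the class median. The 5 enzymes called lower became 11 with median-of-ratios scaling, 3 with a total that leaves out mitochondrial and ribosomal protein genes (Mvd, Fdft1 and Hsd17b7) and 2 with equal label weights. The median of the 13 other genes, 0.07, became 0.0049 with median-of-ratios scaling. That scaling moved the median of all measured genes from 0.066 to about 0, and the genes called lower and higher from 387 and 828 to 486 and 649. Of 279 values of single genes under the alternatives, 275 kept their sign. Scap became -0.011 with median-of-ratios scaling, and Nr1h2 -0.048 with that scaling, -0.024 with thinning and -0.0081 with equal label weights. No paired analysis was possible because each group has 1 library. Leaving out a library was not possible for the same reason. Low counts widen the intervals of single labels, as for Soat1 in Wing cells (47 and 82 counts) and Mvk in LSC cells (63 and 59 counts).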
